A study of Mus musculus with 2 samples.

Results

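Regulators of G protein signalling (RGS proteins) were examined in regulatory T cells (Tregs), CD4+ lymphocytes defined by the transcription factor Foxp3 that keep other immune cells in check. The set comprised 8 genes, Rgs1, Rgs2, Rgs3, Rgs10, Rgs14, Rgs16, Rgs18 and Rgs19. Every probe set that the array's annotation assigned to exactly 1 of these genes was taken, which gave 18 of the 45037 probe sets that are not controls. The genes were picked with their signals on these same arrays known, so all of their values are descriptions and none is a test.

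The cells of interest were splenic CD4+Foxp3+ Tregs of DNR mice, whose TGF-beta receptor II is opposed by a dominant negative (DNR) form that interferes with the response to the cytokine TGF-beta, and they were set against the same cells of wild-type (WT) mice. Both kinds of mice had the C57BL/6 background and were 10 weeks old, and the cells were purified by flow cytometry. There was 1 Affymetrix array per genotype. The promoter that drives the receptor, the number of mice per RNA and the way Foxp3 was seen before lysis were not stated. The text on cell sorting names DNR mice for both samples, and the genotype label was used.

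Many receptors for chemokines, lipids and adenosine act through G proteins, whose alpha subunit signals while it holds GTP and stops when the GTP is hydrolysed. RGS proteins speed up that hydrolysis through a shared RGS domain and so shorten or weaken the signal of the receptor. In lymphocytes they are best known for limiting migration towards chemokines, and several of their genes are switched on by activation of the cell.

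The promoters of Rgs16 and Rgs10 are shown because these genes had the largest differences between the arrays. Each line gives 250 bases upstream of the annotated start from RefSeq, build GRCm38.p6, written in the direction of the gene. Rgs16 lies on the plus strand, chr1:153740103-153740352, and Rgs10 on the minus strand, chr7:128418173-128418422. Capitals mark matches to the motifs named next.
Rgs16: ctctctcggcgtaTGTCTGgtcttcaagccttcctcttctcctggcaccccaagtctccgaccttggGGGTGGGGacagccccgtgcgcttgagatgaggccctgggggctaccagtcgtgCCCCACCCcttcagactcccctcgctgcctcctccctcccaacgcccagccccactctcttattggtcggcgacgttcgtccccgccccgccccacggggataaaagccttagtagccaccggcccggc
Rgs10: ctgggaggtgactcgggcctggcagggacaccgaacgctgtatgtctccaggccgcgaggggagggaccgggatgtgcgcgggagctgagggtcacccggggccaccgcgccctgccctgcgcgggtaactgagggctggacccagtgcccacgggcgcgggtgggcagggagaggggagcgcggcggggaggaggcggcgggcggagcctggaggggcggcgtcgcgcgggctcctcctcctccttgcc

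Motifs of 6 kinds were searched on both strands, namely CAGACA (the SMAD CAGA box), GTCTAGAC (a palindromic SMAD element), TGACGTCA (the cAMP response element), TGANTCA (AP-1), CCNCACCC (the CACCC box of KLF and SP factors) and GGAAAA (the core of NFAT sites). The table holds 8 windows for 5 of the genes, Rgs2, Rgs3, Rgs10, Rgs16 and Rgs19. The CAGA box was found on the minus strand of the Rgs16 window, from base 237 to base 232 before the start, and in 1 of the 2 windows of Rgs3. It occurred in 17.1% of all 32851 windows of this length. The CACCC box was found on both strands of the Rgs16 window, from base 183 to 176 and from base 129 to 122 before the start, and in 2 of the 3 windows of Rgs19, which overlap and share the same match. It occurred in 14.9% of all windows. The NFAT core was found in 1 window of Rgs19, against 20.4% of all windows. The palindromic SMAD element, the cAMP element and AP-1 were found in none of the 8 windows, and in 0.167%, 1.55% and 6.75% of all windows. None of the 6 motifs was found in the windows of Rgs10 and Rgs2. These matches describe letters in the window and show no binding.

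Signals are those of MAS5, in arbitrary linear units. A floor of 110.9, the higher of the 2 array medians, was set, and lower values were raised to it before a ratio was taken. A gene was represented by its brightest probe set, that with the highest mean of the DNR and WT signals, and counted as measured where it exceeded the floor on 1 or both arrays. By this rule 7 of the 8 genes were measured, all 7 on both arrays, and Rgs18 was not. Of the 18 probe sets 16 were above the floor on at least 1 array and 2 on neither. Each difference is between 2 RNA samples, has no replicate check and allows no p-value, and fewer cells of a type cannot be told apart from less RNA per cell.

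Rgs16 had clearly lower signals in DNR Tregs, Rgs10 was lower by just under 2-fold, and the other measured members differed by less than 1.5-fold by their brightest probe set. Of the 7 measured genes 6 were lower in DNR Tregs, where 48.6% of all 11927 measured genes were lower. A difference of at least 2-fold in either direction was seen for 1 of the 7, against 6.93% of all measured genes. That gene, Rgs16, was lower, as were 2.93% of all measured genes by this amount. Of the 16 probe sets 14 were lower and 3 were lower by at least 2-fold. Among all 20764 probe sets with a single gene and a signal above the floor these shares were 48.5% and 3.30%. The median log2 ratio of DNR over WT was -0.33 over the 7 genes and 0.014 over all measured genes.

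**Figure D1:**
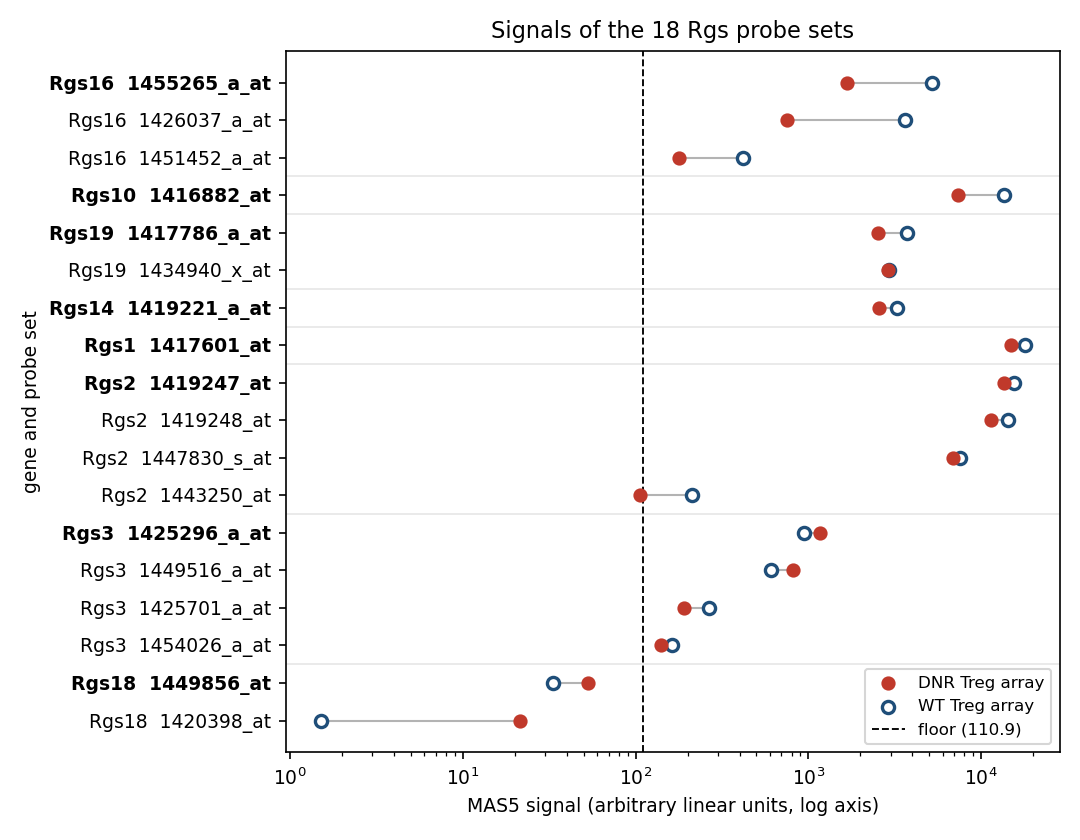
MAS5 signals of the 18 Rgs probe sets on a log axis, with filled points for the DNR Treg array, open points for the WT Treg array and a dashed line at the floor of 110.9. Bold labels mark the brightest probe set of each gene; all 3 Rgs16 probe sets lie lower on the DNR array, and both Rgs18 probe sets lie below the floor.

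Rgs16 encodes a small RGS protein that acts on the Gi and Gq classes of alpha subunits and is induced when T cells are activated. Its brightest probe set, 1455265_a_at, had a signal of 1674 in DNR Tregs and 5215 in WT Tregs, a 3.11-fold lower value. Probe set 1426037_a_at had 750 in DNR Tregs and 3630 in WT Tregs, 4.84-fold lower. Probe set 1451452_a_at had 179 in DNR Tregs and 419 in WT Tregs, 2.34-fold lower. The 3 probe sets thus put Rgs16 lower in DNR Tregs by log2 ratios between -2.27 and -1.23. Of 9281 genes above the floor on both arrays, 31 (0.334%) had a lower ratio than Rgs16. Among 1552 genes for which 3 or more probe sets exceeded the floor on both arrays, 3 (0.193%) had all of them lower by at least 2-fold, and these were Rgs16, the calponin gene Cnn3 and the sialyltransferase gene St8sia6. The ending of their names says that all 3 Rgs16 probe sets were designed to match more than 1 transcript of the gene, so the transcript forms cannot be separated here.

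An error can be taken only from how far probe sets for 1 gene disagree. Around its gene's mean a log2 ratio had a robust SD of 0.39, or 1.31-fold, taken over 3968 genes with 2 or more probe sets exceeding the floor on each array. Differences from mouse to mouse or from sort to sort are not part of it. The differences of Rgs16, Rgs10 and the brightest probe set of Rgs19 were larger than this SD. Those of Rgs1, Rgs14 and the brightest probe sets of Rgs2 and Rgs3 were smaller. A ratio even lower than that of Rgs19 was found for 11.3% of all genes exceeding the floor on each array. Passing this SD was thus not rare, and the share of all genes past it was not counted.

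Rgs1 and Rgs2 belong to the same subfamily of small RGS proteins as Rgs16. Rgs1 restrains the migration of lymphocytes towards chemokines. Its only probe set had a signal of 14884 in DNR Tregs and 17877 in WT Tregs, 1.20-fold lower. Rgs2 differs from most of its relatives in acting mainly on the Gq class. Its brightest probe set had 13638 in DNR Tregs and 15552 in WT Tregs, 1.14-fold lower. The next had 11361 in DNR Tregs and 14321 in WT Tregs, 1.26-fold lower, and the third had 6887 in DNR Tregs and 7543 in WT Tregs, 1.10-fold lower. All of these probe sets were bright on both arrays and slightly lower on the DNR array. The fourth Rgs2 probe set, 1443250_at, was dim, with 106 in DNR Tregs, under the floor, and 212 in WT Tregs, so it was at least 1.91-fold lower. The 4 Rgs2 probe sets went the same way, with log2 ratios between -0.93 and -0.13.

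Rgs3 is known for its many transcript forms, and its probe sets went both ways. The brightest had a signal of 1171 in DNR Tregs and 951 in WT Tregs, 1.23-fold higher. Probe set 1449516_a_at had 814 in DNR Tregs and 612 in WT Tregs, 1.33-fold higher. The dimmer 1425701_a_at had 190 in DNR Tregs and 267 in WT Tregs, 1.41-fold lower. Probe set 1454026_a_at, close to the floor, had 141 in DNR Tregs and 164 in WT Tregs, 1.16-fold lower. The median log2 ratio over the 4 probe sets was 0.044. A split of this kind was common, since 481 of 594 genes for which 4 or more probe sets exceeded the floor on both arrays (81.0%) had some higher and some lower. Which Rgs3 transcripts each probe set reads cannot be told from the files.

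Rgs18 is abundant in platelets and their precursors, the megakaryocytes. Its probe sets had signals of 53.2 and 21.6 in DNR Tregs and 33.3 and 1.51 in WT Tregs. All 4 values were under the floor, so no ratio is given. Markers of platelets and megakaryocytes were also dim. Of 7 with a probe set, 1 was above the floor in DNR Tregs and 3 in WT Tregs, with a summed signal of 373 in DNR Tregs and 702 in WT Tregs. Pf4 and Ppbp, which encode platelet chemokines, were under the floor on both arrays.

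Rgs10 and Rgs14 belong to another subfamily. Rgs10 consists of little more than the RGS domain and acts on Gi class subunits, and it is found in many blood cells. Its only probe set had a signal of 7360 in DNR Tregs and 13562 in WT Tregs, 1.84-fold lower, a log2 ratio of -0.88. A lower ratio was seen for 377 (4.06%) of the 9281 genes that exceeded the floor on each array. Rgs14 carries, beside its RGS domain, domains that bind Ras-like GTPases and inactive Gi subunits. Its only probe set had 2580 in DNR Tregs and 3252 in WT Tregs, 1.26-fold lower, and 22.5% of those genes had a lower ratio. Each of these genes rests on a single probe set, so no second reading of it exists on this array.

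Rgs19, also known as GAIP, binds Gi class subunits and is anchored to membranes by a cysteine-rich stretch. Probe set 1417786_a_at had a signal of 2541 in DNR Tregs and 3721 in WT Tregs, 1.46-fold lower. Its other probe set, 1434940_x_at, had 2909 in DNR Tregs and 2940 in WT Tregs, 1.01-fold lower. The probe sets therefore disagreed on the size of the difference, with log2 ratios of -0.55 and -0.015. The name of the second marks it as open to binding related transcripts.

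**Figure D2:**
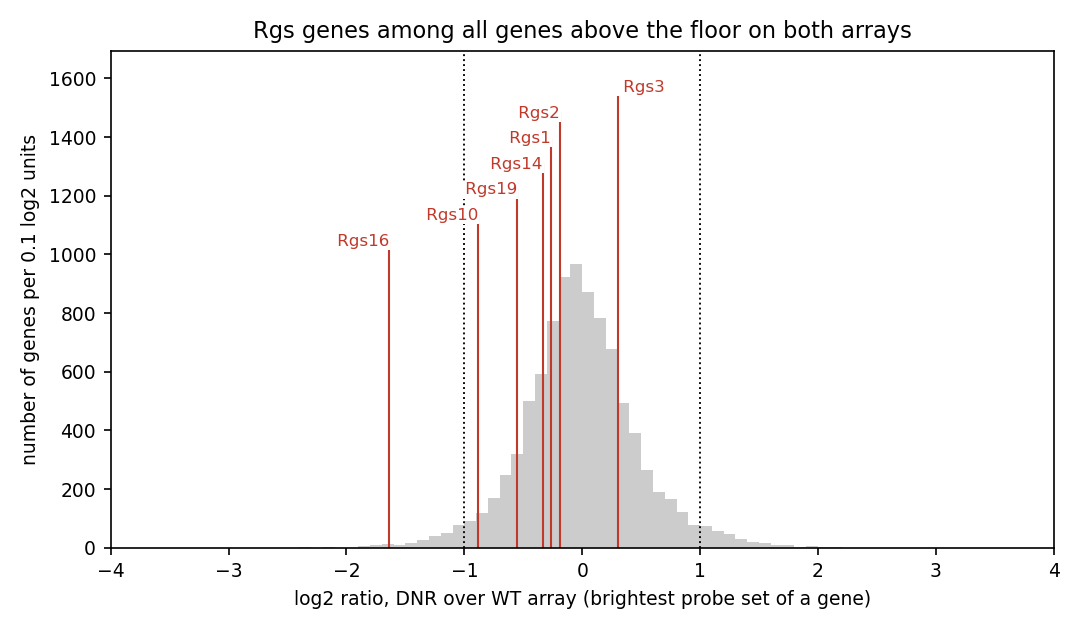
Histogram of the log2 ratio of the DNR over the WT array for the 9281 genes that exceeded the floor on each array, in bins of 0.1, with the 7 measured Rgs genes as vertical lines and 2-fold differences as dotted lines. Rgs16 lies in the lower tail at -1.64 and Rgs10 just inside the 2-fold line at -0.88, while Rgs1, Rgs2, Rgs3 and Rgs14 lie within the bulk of the genes.

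Several of these genes are neighbours in the mouse genome. In the RefSeq annotation (GRCm38.p6) Rgs2, Rgs13, Rgs1, Rgs21 and Rgs18 follow one another on chromosome 1 with 0 other protein-coding genes between them. This row holds the bright genes Rgs1 and Rgs2. It also holds Rgs18, which was under the floor, and Rgs13, with 6.91 in DNR Tregs and 1.78 in WT Tregs, also under it. Rgs16 lies elsewhere on chromosome 1, next to Rgs8, whose signals of 9.36 in DNR Tregs and 3.36 in WT Tregs were under the floor too. No measured RGS gene thus lies beside Rgs16 for comparison. No second numbered Rgs gene lies on the chromosomes of Rgs3, Rgs10, Rgs14 and Rgs19.

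The other genes of the RGS family were mostly near or under the floor. A list of 17, which includes the related scaffold genes Axin1 and Axin2 and the binding partners Rgs7bp and Rgs9bp, had probe sets for 15 genes, and in 8 of these every probe set was under the floor on both arrays. By the brightest probe set 6 were measured, of which 5 were higher in DNR Tregs and 1 lower, none by 2-fold in floored ratios. Axin1, a scaffold of the complex that degrades beta-catenin, had 1242 in DNR Tregs and 1516 in WT Tregs. Axin2, a related scaffold induced by Wnt signalling, had 634 in DNR Tregs and 478 in WT Tregs. Rgs9, known from photoreceptors and the striatum, had 212 in DNR Tregs and 197 in WT Tregs. These 3 were above the floor on both arrays and differed by at most 1.33-fold.
Of all measured genes 1813 exceeded the floor in DNR Tregs only and 833 in WT Tregs only, and the array medians were 110.9 for DNR and 91.0 for WT.
Rgs6, Rgs12 and Rgs17 were just above the floor in DNR Tregs, at 147, 164 and 143, and under it in WT Tregs, at 63.4, 82.8 and 5.28. Their ratios are bounds of at least 1.33-fold, 1.48-fold and 1.29-fold higher. For Rgs20 the probe set with the highest mean had 22.5 in DNR Tregs and 109 in WT Tregs, both under the floor, while another with nearly the same mean had 125 in DNR Tregs and 3.02 in WT Tregs. The median of the 6 measured genes was 0.39, but a floor at the 40th percentile gave -0.023.

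None of the measured G protein subunit genes differed by 2-fold in floored ratios, though several came close to it. Some of these ratios are bounds, so larger differences are not excluded for those genes. Of 11 measured alpha subunit genes 7 were higher in DNR Tregs and 4 lower. No floored ratio reached 2-fold in either direction, and the median log2 ratio was 0.23. Among those above the floor on both arrays, Gna12 and Gna15 differed most. Gna12 had 934 in DNR Tregs and 510 in WT Tregs (1.83-fold higher), and Gna15 had 346 in DNR Tregs and 195 in WT Tregs (1.77-fold higher). Gnas, the alpha subunit that stimulates adenylyl cyclase, had 9914 in DNR Tregs and 11251 in WT Tregs, and its other probe sets above the floor were higher on the DNR array. Gna13, another alpha subunit, had 8281 in DNR Tregs and 9033 in WT Tregs, and its other 6 probe sets had log2 ratios between -0.16 and 0.43. Of 10 measured beta and gamma subunit genes 7 were higher and 3 lower, again none by 2-fold in floored ratios, with a median of 0.16. Gnb4 had 256 in DNR Tregs and 496 in WT Tregs, 1.94-fold lower, and Gnb3 had 208 in DNR Tregs and 75.7 in WT Tregs, under the floor, at least 1.88-fold higher. The brightest were Gnb2, at 6131 in DNR Tregs and 5507 in WT Tregs, and Gng10, at 4818 in DNR Tregs and 5890 in WT Tregs.

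Receptor kinases, arrestins and other regulators, which dampen receptors or G proteins by other routes, had 7 higher and 6 lower genes among 13 measured, with a median of 0.063. The 1 gene past 2-fold was Grk5, a kinase that phosphorylates active receptors, with 403 in DNR Tregs and 173 in WT Tregs, 2.33-fold higher. Its second probe set was under the floor on both arrays. Effectors of G proteins and of cyclic AMP had 11 higher and 12 lower genes among 23 measured, with a median of -0.0039. None reached 2-fold in floored ratios, some of which are bounds, where 6.93% of all measured genes did. The brightest were Prkar1a, a regulatory subunit of protein kinase A (9601 in DNR Tregs and 13007 in WT Tregs, with 2 other probe sets higher), and Adcy7, an adenylyl cyclase of blood cells (8553 in DNR Tregs and 8577 in WT Tregs). The other probe sets of Adcy7 were 1.24-fold and 1.16-fold higher on the DNR array.

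Receptors that couple to G proteins in lymphocytes went both ways. Of 29 measured, 13 were higher and 16 lower in DNR Tregs, with 3 and 5 of these past 2-fold and a median of -0.070. The largest floored ratios were those of Gpr15, a gut-homing receptor (104 in DNR Tregs, under the floor, and 428 in WT Tregs, at least 3.86-fold lower), and Cxcr3, a receptor of type 1 responses (5954 in DNR Tregs and 1780 in WT Tregs, 3.35-fold higher). Next came Ccr1, a receptor for inflammatory chemokines (299 in DNR Tregs and 110 in WT Tregs, under the floor, at least 2.70-fold higher), and Ccr7, which guides cells into lymphoid tissue (4627 in DNR Tregs and 11433 in WT Tregs, 2.47-fold lower). A second Ccr1 probe set was under the floor on both arrays, with 9.78 in DNR Tregs and 55.7 in WT Tregs. Across the 6 lists of related genes, 4 genes at least 2-fold higher and 5 at least 2-fold lower were found in all, of which 8 were among the 29 measured receptors. Of all measured genes 6.93% differed by at least 2-fold in either direction.

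**Figure D3:**
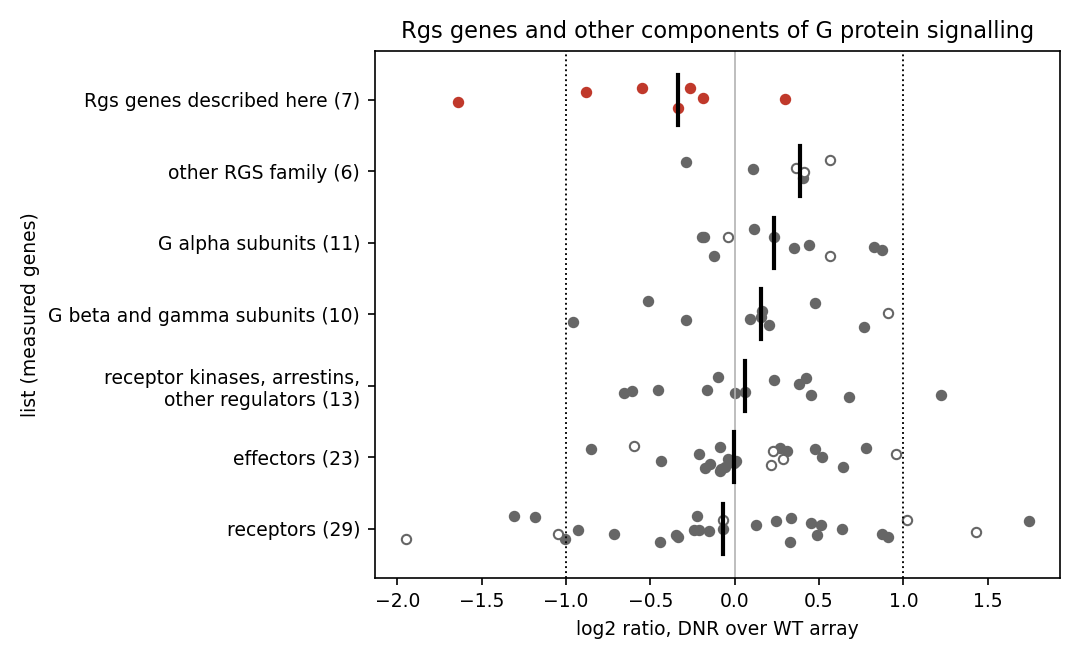
The log2 ratio of the DNR over the WT array for each measured gene of the Rgs set and of 6 lists of related genes, with the number of measured genes in brackets, medians as black bars and 2-fold differences as dotted lines. Filled points were above the floor on both arrays and open points are bounds; vertical scatter within a list has no meaning, and the Rgs set has a median of -0.33 while the alpha subunits have 0.23.

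The labelled cell type was checked against its markers. All 8 Treg markers and all 6 T cell markers with a probe set were above the floor on both arrays. Of the Treg markers 4 were higher in DNR Tregs and 4 lower, and of the T cell markers 3 were higher and 3 lower, none by 2-fold. Foxp3 had 4550 in DNR Tregs and 3754 in WT Tregs, Nrp1, the lowest Treg marker by ratio, had 5809 in DNR Tregs and 8798 in WT Tregs, and Cd4 had 415 in DNR Tregs and 595 in WT Tregs. Markers of macrophages and monocytes were lower in DNR Tregs in 7 of 7 measured cases, 2 of them by at least 2-fold. Their summed signal over 9 genes was 3540 in DNR Tregs and 4904 in WT Tregs. These markers moved in the same direction as Rgs16 and Rgs10, and their part in those differences was not tested. All 3 measured platelet and megakaryocyte markers were lower too. Of 3 measured neutrophil markers 2 were higher in DNR Tregs, each by at least 2-fold, and 1 was lower. Summed B cell markers were 1286 in DNR Tregs and 1113 in WT Tregs (7 genes), those of CD8 T and NK cells 1228 in DNR Tregs and 1100 in WT Tregs (7 genes), and those of neutrophils 875 in DNR Tregs and 505 in WT Tregs (8 genes). Dendritic cell markers summed to 522 in DNR Tregs and 369 in WT Tregs (7 genes) and erythroid markers to 211 in DNR Tregs and 320 in WT Tregs (6 genes). Tgfbr2, the gene of the receptor that the transgene alters, had 5457 in DNR Tregs and 8193 in WT Tregs by its brightest probe set. Its probe set 1425444_a_at had 7.85 in DNR Tregs, under the floor, and 238 in WT Tregs, at least 2.14-fold lower. Another Tgfbr2 probe set was under the floor on both arrays. The sources do not say which sequence the transgene carries, so these values do not check the genotype. The hybridisation spike-ins, 18 probe sets, were all brighter in the DNR hybridisation, with a median of 1.95-fold.

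The log2 ratio of Rgs16 was between -1.64 and -1.60 in the 8 other settings that kept an Rgs16 probe set. Of these only the 3 other scalings could move it, since the probe set lies above every floor tried and is the middle of the 3. Rgs10 stayed between -0.89 and -0.84 in 9 other settings and reached 2-fold in none of them. Here too only the 3 other scalings could move it, since its only probe set lies above every floor tried and was kept in each setting. Rgs3 was higher in all 8 other settings that kept it, with log2 ratios between 0.044 and 0.34, and Rgs19 was lower in all 8, between -0.55 and -0.28. With all probe sets ending in _a_at, _s_at or _x_at left out, Rgs3, Rgs14, Rgs16 and Rgs19 had no probe set.

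**Figure D4:**
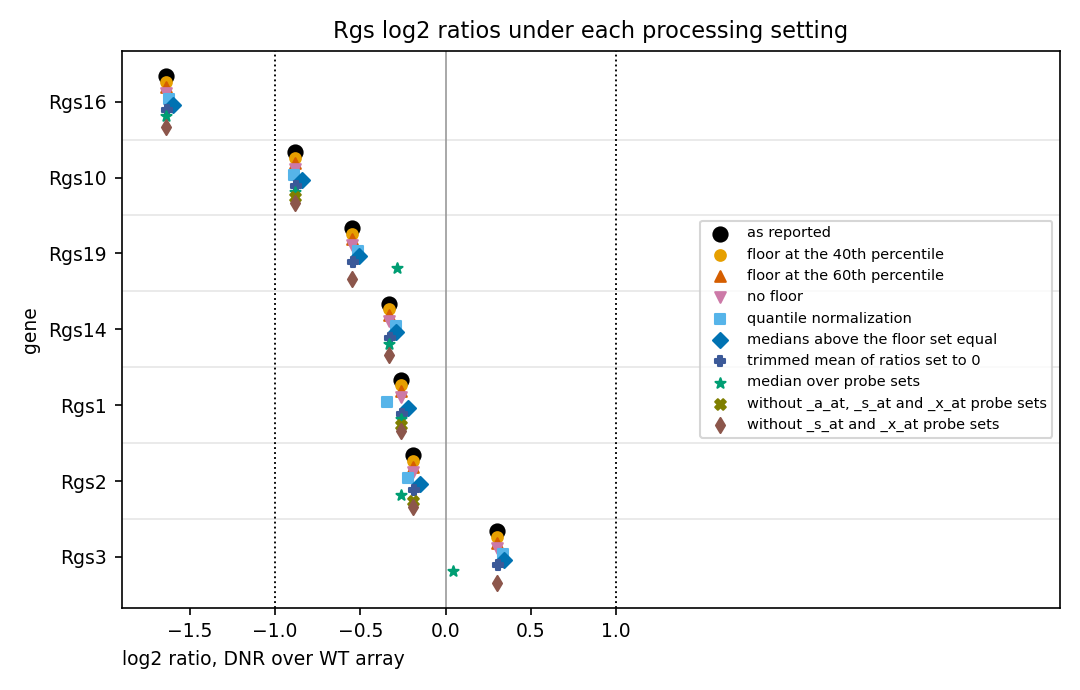
The log2 ratio of the DNR over the WT array for the 7 measured Rgs genes as reported and under each other setting, one symbol per setting, with 2-fold differences as dotted lines. Rgs16 lies beyond the 2-fold line in every setting that kept a probe set for it, and the median over probe sets brings Rgs3 and Rgs19 closer to 0.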

How the data were processed

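Total RNA of sorted splenic Tregs was measured on 1 array per genotype. Per the submitters' processing notes, the deposited intensity values are MAS5 signals, 1 per probe set, on a linear scale. Without the highest and lowest 2% of values the mean was 500.0 on each array, which points to a common scaling of the deposited intensities, and no further detail was stated. The number of arrays limits the precision.

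Of 45101 probe sets, 64 controls were set aside. Names came from the platform annotation, which gave a single gene to 34945 of the rest, and 0 symbols changed when updated through Entrez identifiers. Values were raised to the floor and compared as log2 ratios of DNR over WT with Python 3.11.15, pandas 2.3.3 and numpy 2.4.6, and the procedure was tested on simulated data. The simulated differences were larger than that of any Rgs gene by its brightest probe set. They therefore do not show how well differences of the size seen here are recovered. With 1 array per group there was no test, and differences were described by a threshold of 2-fold.

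The 8 genes and the lists of related genes were chosen with earlier results of these data known. All 8 are named with every probe set, and every measured gene of the other RGS list with its brightest. From each further list up to 4 genes with the largest differences past 2-fold are named, or the 2 brightest if there were none. Pf4, Ppbp, Foxp3, Nrp1, Cd4, Gna12, Gna15, Gnb3, Gnb4, Rgs8, Rgs13, Rgs20, Cnn3 and St8sia6 were named after their values were seen. The alternatives were other floors, scalings, thresholds and ways to choose a probe set. Promoters came from a RefSeq table of GRCm38.p6 windows.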

Additional observations from a re-analysis of the deposited data

How the results depend on the processing

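No paired analysis was possible because each genotype has 1 array, and for the same reason no replicate could be left out. A gene's ratio was taken as unchanged if it moved by less than 0.39 log2 units, the disagreement between probe sets, and a list median if it moved by less than that divided by the square root of its number of genes. By this measure no ratio of the 7 measured Rgs genes moved in any setting that kept a probe set. The median of the Rgs genes measured in each setting was between -0.34 and -0.26, but over differing genes. The -0.26 is that of the 3 genes left without probe sets ending in _a_at, _s_at or _x_at, and with no floor Rgs18 entered as well. The ratios of Rgs1, Rgs2, Rgs3 and Rgs14 were themselves smaller than 0.39. The measure therefore could not show a loss of their differences. With the median over probe sets Rgs3 went from 0.30 to 0.044 and Rgs19 from -0.55 to -0.28, which this measure counts as unchanged. For genes far above the floor the other floors cannot move a ratio, by construction.

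A floor at the 40th percentile left 1026 genes at least 2-fold higher and 550 lower, against 477 and 350 as reported. There the medians of the other RGS family and of the receptors were -0.023 and -0.15. At the 60th percentile the counts were 250 higher and 246 lower, and the other RGS family had a median of 0.11. With no floor the counts were 3617 higher and 2655 lower, and the alpha subunit median was 0.11. Quantile normalization gave medians of 0.0011 for the other RGS family and -0.19 for the receptors. The median over probe sets gave 0.24 for receptor kinases, arrestins and other regulators, 0.22 for effectors and -0.15 for receptors. Without probe sets ending in _a_at, _s_at or _x_at 3 Rgs genes were measured, 0 of them 2-fold lower, and the receptor median was 0.029; fewer probe sets enter by construction. Without only those ending in _s_at or _x_at, a setting added after seeing the data, 1 Rgs gene was 2-fold lower. At 1.5-fold 2 Rgs genes were lower, with 1526 genes higher and 1175 lower in all, and at 3-fold 56 genes were higher and 63 lower. Where not stated, the cause was not tested. Of the 6 measured genes of the other RGS family 3 were above the floor on both arrays.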
